A study of Mus musculus with 20 samples.

Results

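The genes described here are 10 markers of tendon and dense connective tissue, Tnmd, Scx, Mkx, Fmod, Comp, Thbs4, Kera, Chad, Tppp3 and Cilp, in RNA sequencing of mouse skeletal muscle. They were taken by name from a fixed list, without reference to a threshold on their values. The list itself was chosen with earlier results of these data known. All 10 were found among the 53465 gene identifiers of the deposited tables, and all 10 were among the 15709 genes that passed the filter on low counts. The 20 libraries came from muscle of wild-type mice in 4 groups of 5: trained females, non-trained females, trained males and non-trained males. All 4 groups shared the wild-type genotype, and which muscle was taken, how old the mice were and how they were trained do not stand in the labels, nor does a batch. The design sets trained against non-trained mice within each sex, sets these 2 effects against each other, and sets males against females. Gene coordinates are those of GENCODE M21 on GRCm38.

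Tendon joins muscle to bone through parallel collagen I fibrils laid down by tendon fibroblasts, and a muscle sample can hold tendon, aponeurosis and the connective sheaths that continue into it. Tendon fibroblasts form and mature under the transcription factors scleraxis (Scx) and Mohawk (Mkx), and scleraxis acts upstream of tenomodulin (Tnmd) in mouse tendon. Around the fibrils lie small leucine-rich proteoglycans that govern fibril diameter, such as fibromodulin (Fmod) and keratocan (Kera), and pentameric thrombospondins, such as Comp and Thbs4, that bridge collagen and other matrix proteins. In RNA from whole tissue, fewer cells of a type and less RNA per cell cannot be told apart.

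The upstream sequences of 4 members are shown because they are the members in the sequence table with an E-box in this window, and all 4 are matrix genes. Each is the 250 bases before the RefSeq start on GRCm38.p6, written 5′ to 3′ on the strand of the gene, and capitals mark CANNTG, the E-box, which basic helix-loop-helix factors such as scleraxis bind.
Fmod, chr1:134037004-134037253, plus strand: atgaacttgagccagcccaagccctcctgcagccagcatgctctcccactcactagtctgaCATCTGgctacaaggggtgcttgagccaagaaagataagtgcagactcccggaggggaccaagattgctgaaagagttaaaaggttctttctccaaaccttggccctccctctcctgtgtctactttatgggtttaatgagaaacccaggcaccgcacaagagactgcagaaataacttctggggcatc
Chad, chr11:94564797-94565046, plus strand: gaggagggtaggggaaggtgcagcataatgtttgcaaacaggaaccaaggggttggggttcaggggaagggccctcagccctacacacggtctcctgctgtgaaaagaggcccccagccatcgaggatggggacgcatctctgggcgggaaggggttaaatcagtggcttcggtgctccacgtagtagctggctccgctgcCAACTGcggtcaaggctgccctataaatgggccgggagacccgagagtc
Thbs4, chr13:92794819-92795068, minus strand: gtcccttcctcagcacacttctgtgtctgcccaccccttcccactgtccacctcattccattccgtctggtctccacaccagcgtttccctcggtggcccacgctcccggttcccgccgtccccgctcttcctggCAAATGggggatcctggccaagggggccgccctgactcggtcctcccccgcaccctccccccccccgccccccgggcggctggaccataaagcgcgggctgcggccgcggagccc
Cilp, chr9:65264930-65265179, plus strand: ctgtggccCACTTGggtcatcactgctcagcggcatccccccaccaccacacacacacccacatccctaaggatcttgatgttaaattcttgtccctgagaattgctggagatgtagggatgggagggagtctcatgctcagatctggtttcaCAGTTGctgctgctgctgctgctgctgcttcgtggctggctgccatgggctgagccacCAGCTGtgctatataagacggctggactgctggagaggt
The sequence table held 6 of the 10 members. Fmod had 1 E-box, 189 bases before the start, Chad had 1 at 49 bases, Thbs4 had 1 at 115 bases and Cilp had 3. The windows of Kera and Tnmd, which are not shown, held 0. CANNTG reads the same way on both strands, so 1 search covers both, and it occurred in 66.2% of the 32851 RefSeq mouse promoters searched over the same 250 bases. The form CAGCTG, present before Cilp, occurred in 13% of them. A match describes the letters only.

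Libraries held 22043145 to 38483572 expected counts. The fast fibre genes summed to between 125800 and 182800 TPM, a relative abundance scaled by transcript length, in every library, which matches the labelled tissue. Female non-trained libraries 1 and 2 stood apart from the rest in the tendon genes. The main results that draw on that group are therefore also given without them, a choice made after the data were seen. Library 1 had the highest total of all (38483572 counts), yet 18727 genes were detected in it, against 19806 to 21449 in the other 19.

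In TPM, the scale on which genes can be ordered by level, the means over 20 libraries ran from Fmod (55.6), Tppp3 (42.8), Thbs4 (38.7) and Cilp (20.4) through Comp (9.51), Scx (8.16), Chad (7.65) and Tnmd (5.32) to Kera (2.63) and Mkx (0.671). Neighbours in this order overlapped in their library values, and Scx, Chad and Tnmd each ranged across the means of the other two. Fmod, a proteoglycan gene, led the order and Mkx, a transcription factor gene, closed it.

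**Figure D1:**
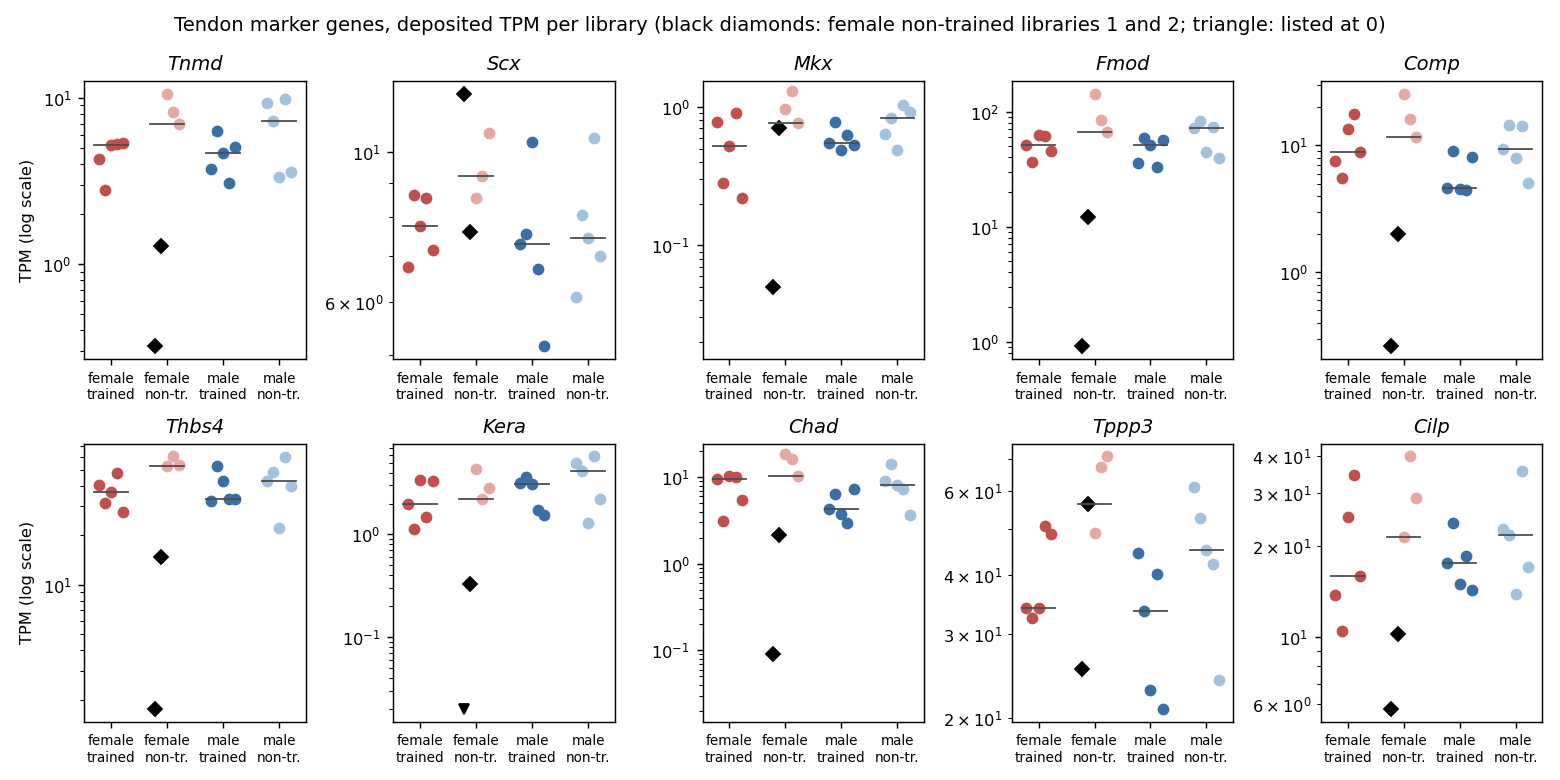
TPM of each of the 10 genes in every library on a log scale, with each group's 5 libraries as points and the group median as a line. Black diamonds are female non-trained libraries 1 and 2 and the triangle marks Kera listed at 0 TPM in library 1. Fmod spans 0.91 to 143 TPM, while Scx spans 5.15 to 12.2 TPM.

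Scx (chromosome 15, 76457452 to 76459458, plus strand), the scleraxis gene, varied little. It had 6.76, 8.64, 7.77, 8.55 and 7.15 TPM in trained females, against 12.2, 7.61, 8.56, 9.21 and 10.7 TPM in non-trained females. In males it had 7.31, 7.55, 10.3, 6.70 and 5.15 TPM in trained mice, against 6.09, 8.06, 7.45, 10.5 and 7.0 TPM in non-trained mice. Female non-trained library 1, which was lowest of all 20 for 8 of the other members, was the highest for Scx, and the groups overlapped throughout. Scx lies within Bop1, which is on the opposite strand and shares 0 exon bases with it. Bop1, a ribosome biogenesis gene, had 15.5 TPM in that library, against 11.8 to 17.3 TPM in the other 19. The library kit marked strand, per the labels' protocols, but no source used here gives the strand setting of the counting.

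Mkx (chromosome 18, 6934518 to 7004780, minus strand), the Mohawk homeobox gene, was the least abundant member. It ranged from 0.22 to 0.91 TPM in trained females and from 0.05 to 1.31 TPM in non-trained females. In males it ranged from 0.49 to 0.78 TPM in trained mice and from 0.49 to 1.04 TPM in non-trained mice. The 0.05 TPM of female non-trained library 1 rested on 4 counts.

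Tnmd (chromosome X, 133850980 to 133865577, plus strand) encodes tenomodulin, a transmembrane glycoprotein of differentiated tendon cells. It had 4.28, 2.78, 5.21, 5.31 and 5.33 TPM in trained females, against 0.32, 1.29, 10.6, 8.18 and 6.92 TPM in non-trained females. Within the non-trained females, libraries 1 and 2 lay below every trained library and libraries 3 to 5 lay above every trained library. In males Tnmd had 3.71, 6.34, 4.63, 3.08 and 5.06 TPM in trained mice, against 9.37, 7.29, 3.32, 9.85 and 3.58 TPM in non-trained mice, and these groups overlapped.

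Fmod (chromosome 1, 134037254 to 134048277, plus strand), encoding fibromodulin, was the most abundant member and the one with the widest range in TPM units. It had 51.35, 36.6, 62.75, 61.5 and 45.0 TPM in trained females, against 0.91, 12.1, 143, 84.4 and 66.0 TPM in non-trained females. Non-trained females thus held both its lowest and its highest value, and the 5 trained libraries sat between library 2 and library 5 of that group. In males Fmod had 35.9, 58.6, 51.2, 32.7 and 56.3 TPM in trained mice, against 72.6, 83.6, 44.2, 73.9 and 39.9 TPM in non-trained mice. The highest of the 20 values was 157 times the lowest, and 4.38 times without female non-trained libraries 1 and 2.

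Chad (chromosome 11, 94565047 to 94569127, plus strand) encodes chondroadherin, a leucine-rich repeat protein that binds collagen and integrin. It had 9.48, 3.14, 10.3, 10.1 and 5.46 TPM in trained females, against 0.09, 2.16, 18.7, 16.3 and 10.3 TPM in non-trained females. Libraries 3 and 4 of the non-trained females exceeded every other library in the study for this gene. In males it had 4.35, 6.32, 3.76, 2.99 and 7.27 TPM in trained mice, against 9.08, 14.1, 8.08, 7.37 and 3.66 TPM in non-trained mice. Chad lies within Acsf2, on the opposite strand, with 0 shared exon bases. Acsf2 had 0.68 TPM in female non-trained library 1, against 1.24 to 2.86 TPM in the other 19, and its part in the low Chad value was not tested.

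Kera (chromosome 10, 97606879 to 97613692, plus strand), encoding keratocan, a keratan sulphate proteoglycan best known from cornea, ranged from 1.13 to 3.37 TPM in trained females and from 0 to 4.33 TPM in non-trained females. In males it ranged from 1.54 to 3.60 TPM in trained mice and from 1.3 to 5.76 TPM in non-trained mice. It was the only member listed at 0 in any library, with 0 counts in female non-trained library 1.

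Comp (chromosome 8, 70373558 to 70382066, plus strand), cartilage oligomeric matrix protein, is a pentameric thrombospondin of tendon and cartilage. It had 7.49, 5.54, 13.4, 17.7 and 8.83 TPM in trained females, against 0.26, 1.99, 25.6, 16.1 and 11.7 TPM in non-trained females. In males it had 4.62, 9.09, 4.50, 4.42 and 8.04 TPM in trained mice, against 9.29, 14.5, 7.89, 14.3 and 5.01 TPM in non-trained mice. The trained males formed 2 levels, with 3 libraries from 4.42 to 4.62 TPM and 2 at 8.04 and 9.09 TPM.

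Thbs4 (chromosome 13, 92751590 to 92794818, minus strand), encoding thrombospondin 4, another pentamer found at the junction of muscle and tendon, had 40.2, 31.3, 36.5, 48.0 and 27.55 TPM in trained females, against 1.76, 14.8, 53.0, 60.4 and 53.8 TPM in non-trained females. Libraries 3 to 5 of the non-trained females lay above all 5 trained females, as for Tnmd and Fmod. In males it had 32.2, 52.6, 42.7, 33.3 and 33.2 TPM in trained mice, against 42.7, 48.5, 22.3, 59.6 and 40.2 TPM in non-trained mice.

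Cilp (chromosome 9, 65265180 to 65280605, plus strand) encodes cartilage intermediate layer protein, a matrix protein that binds TGF-beta. It ranged from 10.4 to 34.6 TPM in trained females and from 5.76 to 39.8 TPM in non-trained females. In males it ranged from 14.4 to 23.9 TPM in trained mice and from 13.9 to 35.7 TPM in non-trained mice.

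Tppp3 (chromosome 8, 105467493 to 105471526, minus strand) encodes a tubulin-binding protein that marks cells of the tendon sheath and paratenon. It had 34.05, 32.5, 34.0, 50.7 and 48.7 TPM in trained females, against 25.3, 56.4, 49.0, 67.55 and 71.0 TPM in non-trained females. In males it had 44.5, 33.6, 22.9, 40.1 and 20.8 TPM in trained mice, against 61.0, 52.5, 45.0, 42.1 and 24.0 TPM in non-trained mice. Female non-trained library 2, low for most members, was at 56.4 TPM here, inside the range of the other libraries of its group.

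The summed TPM of the 10 genes gave a tendon content for each library. It was 181.6 ± 39.8 TPM in trained females and 212 ± 127 TPM in non-trained females (SD, n = 5 each). It was 162 ± 23.0 TPM in trained males and 210.3 ± 56.9 TPM in non-trained males (SD, n = 5 each). The spread in non-trained females came from 2 levels: libraries 1 and 2 at 46.7 and 107.7 TPM and libraries 3 to 5 at 335, 306 and 263 TPM, while the other 15 libraries ran from 132 to 260.1 TPM. Library 1 stood at 0.277 times the median library in summed TPM and at 0.175 times in summed CPM, counts scaled to the size of the library. Most of its sum came from Tppp3 (25.3 TPM) and Scx (12.2 TPM). The other 8 members summed to 9.15 TPM in library 1, against a median of 127.8 TPM over the 20 libraries.

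**Figure D2:**
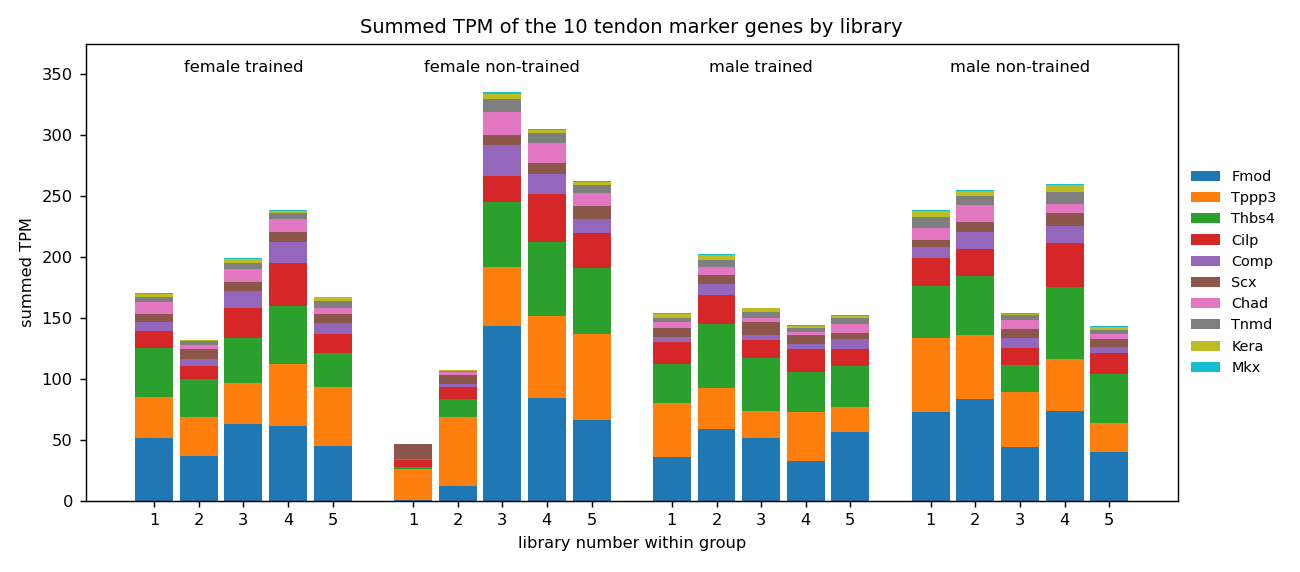
Summed TPM of the 10 genes in each library, stacked by gene, with the libraries of each group numbered 1 to 5 on the horizontal axis. Female non-trained library 1 stands at 46.7 TPM and library 3 of the same group at 335 TPM, the lowest and highest of the 20.

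The shortfall in female non-trained library 1 was unequal among the members. The median CPM of the other 19 libraries was 70.0 times its value for Chad (4 counts in that library), 56.1 times for Fmod (73 counts), 26.3 times for Comp (16 counts), 20.6 times for Thbs4 (145 counts), 15 times for Tnmd (11 counts) and 10.4 times for Mkx (4 counts). For Kera, at 0 counts, it was at least 47.2 times, against a floor of 3 counts in that library. It was 3.07 times for Cilp and 1.60 times for Tppp3. For Scx the ratio was 0.590, so that library lay above the others. Such ratios of a few counts carry a wide counting error, and they describe 1 library.

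Markers of other cell types moved with the tendon genes in that library. It was the lowest of 20 in the summed TPM of fibro-adipogenic and fibroblast markers (185 TPM, against at least 418 TPM in the other 19), Schwann cell markers (29.3 TPM, against at least 57.5 TPM), smooth muscle and pericyte markers (172 TPM, against at least 221 TPM) and macrophage markers (41.3 TPM, against at least 52.8 TPM). It was lowest for 9 of 10 fibroblast markers, 9 of 9 Schwann cell markers, with Mag at 0, 8 of 10 macrophage markers and 6 of 9 endothelial markers. It ranked low but not lowest for adipocyte markers (344 TPM, in a range of 270.5 to 846 TPM) and in the middle for erythroid genes. It was the highest of 20 for fast fibre genes, at 182800 TPM. The part of these differences in the tendon gene values was not tested.

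Within groups, the members varied more than most genes. Their median SD of log2 CPM within groups was 1.09, against 0.257 over all 15709 genes, and 0.48 against 0.237 without female non-trained libraries 1 and 2. Ranked among all genes tested, Chad (98.8), Kera (98.7), Fmod (98.7) and Comp (97.6) stood highest by percentile of this SD and Scx (50.3) lowest. Without the 2 libraries the percentiles were 86.2 for Chad, 87.9 for Kera, 72.8 for Fmod, 76.6 for Comp and 49.4 for Scx.

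Across the 20 libraries, 8 members (all but Scx and Tppp3) varied together. Over their 28 pairs, Pearson's r of log2 CPM ran from 0.72 to 0.98 with a median of 0.90, and without female non-trained libraries 1 and 2 from 0.21 to 0.92 with a median of 0.68. The libraries share their dissection and count scaling, and the size of r over 20 libraries rests in part on those 2. The 8 members were set apart after the values of r were seen, so these values describe the split and do not test it. The closest pair was Comp with Chad, at r = 0.977 and Spearman's rho = 0.93 (20 libraries, permutation p = 1e-05 for each, the smallest these permutations can give, and 4.1e-05 and 9e-05 adjusted over 45 pairs), with r = 0.923 without the 2 libraries farthest from the median. Tnmd with Fmod had r = 0.957 and rho = 0.955 (permutation p = 1e-05 for each, 4.1e-05 and 9e-05 adjusted over 45 pairs), with r = 0.900 without the same 2. Mkx, a transcription factor gene, had r = 0.852 with Tnmd (rho = 0.755, permutation p = 5e-05 and 0.00022, adjusted p = 0.0001 and 0.00058), and r = 0.585 without the 2 libraries. Its r with Kera was 0.215 without female non-trained libraries 1 and 2, the lowest of the 28 pairs, and with Chad 0.752.

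Scx did not follow its fellow members. Its r with the other 9 ran from -0.47 to 0.11 over 20 libraries and from 0.16 to 0.44 without female non-trained libraries 1 and 2, and none of the 9 passed 0.05 after adjustment over 45 pairs in either set. For Scx with Fmod, r was -0.47 and rho 0.15 (20 libraries, permutation p = 0.062 and 0.53), and r was 0.240 without female non-trained libraries 1 and 2 and 0.198 without the 2 libraries farthest from the median, so its sign rested on few libraries. Tppp3 was weakly related to the others, with r from 0.11 to 0.51 over 20 libraries and from 0.28 to 0.61 without those 2. Its closest partner over 20 libraries was Cilp (r = 0.510, rho = 0.48, permutation p = 0.022 and 0.034, adjusted p = 0.034 and 0.053), with r = 0.494 without the 2 libraries farthest from the median. By Pearson's r, 1 of its 9 pairs passed 0.05 after adjustment over 20 libraries, and 3 without female non-trained libraries 1 and 2. Of the 28 pairs among the 8 members, which were set apart after r was seen, 28 and 23 passed. Without those 2 libraries, Kera had r = 0.215 with Mkx, 0.294 with Comp and 0.316 with Chad. The setting apart of Tppp3 from the 8 thus rested in part on those 2 libraries.

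**Figure D3:**
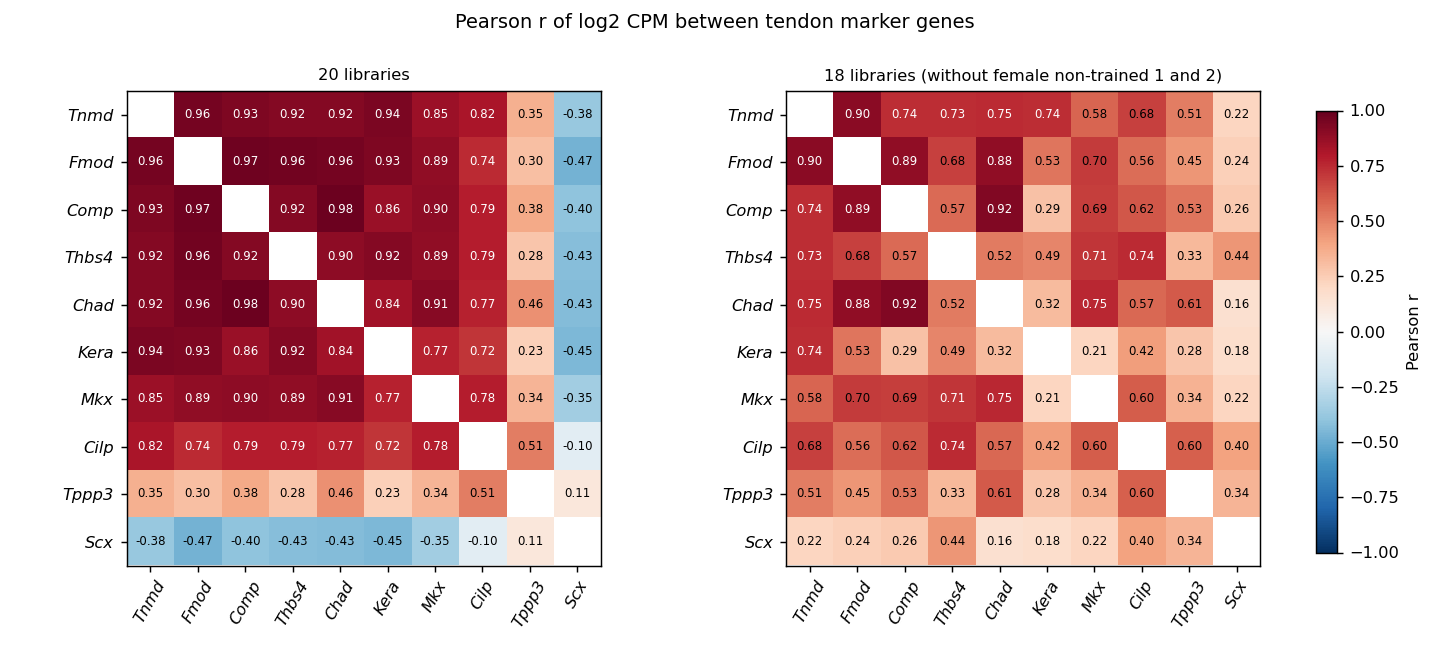
Pearson's r of log2 CPM for the 45 pairs of the 10 genes, over 20 libraries (left) and over 18 without female non-trained libraries 1 and 2 (right), coloured from -1 to 1. The 8 genes at the top left form a block with r of at least 0.72 over 20 libraries and at least 0.21 over 18, while the Scx row is mostly negative on the left and positive on the right.

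In trained against non-trained females, no member passed an adjusted p of 0.05 with edgeR's quasi-likelihood test, with DESeq2 or with limma-voom. At an unadjusted p of 0.05 with edgeR, 0 members passed. The background in this comparison was 0% of 15709 genes called by edgeR, with 1347 genes under an unadjusted p of 0.05. Of the 10 members, 4 had a log2 fold change above 0 and 6 below (3 and 7 without TMM scaling), with a median of -0.10 (over all genes 0.00), and the lowest adjusted p was 0.704, for Scx (-0.26, SE 0.17). Kera had the largest estimate (0.35, SE 0.70), followed by Tppp3 (-0.30, SE 0.28), and Comp stood at 0.18 (SE 0.59). The direction depended on female non-trained libraries 1 and 2. Without library 1, 9 of 10 members were below 0 (median -0.30), and without both all 10 were below 0 (median -0.48). With both left out, Fmod stood at -0.81 (SE 0.30, adjusted p = 0.400) and Tnmd at -0.79 (SE 0.34, adjusted p = 0.473), the only 2 members under an unadjusted p of 0.05, and 1 gene of the whole table was called. Over all genes 1530 of 16311 were under that unadjusted p with edgeR in that setting. With limma-voom on all 20 libraries, 8 of 10 members stood above 0 (median 0.82).

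In trained against non-trained males, all 10 members had a log2 fold change below 0, with a median of -0.43, against 50.1% of all genes below 0 and a median of 0.00. None passed the adjusted threshold with edgeR, DESeq2 or limma-voom, and 0 had an unadjusted p under 0.05 with edgeR. The background was 0% of genes called, with 676 genes under an unadjusted p of 0.05. Chad had the largest estimate (-0.76, SE 0.69), followed by Comp (-0.53, SE 0.59), Tnmd (-0.53, SE 0.55), Tppp3 (-0.46, SE 0.28) and Kera (-0.46, SE 0.68), all with an adjusted p of 0.993. Scx (-0.06, SE 0.17) and Thbs4 (-0.10, SE 0.52) were nearest to 0. Without male non-trained library 4, Scx (0.06) and Thbs4 (0.03) stood above 0, and so did Scx without library 5 of the trained males (0.05). Genes that vary together across libraries do not give 10 separate estimates of a direction.

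Averaged over both sexes, 9 of 10 members were below 0 (median -0.17, over all genes 0.00) and none was called, against 0.0127% of all genes (2 of 15709). Tppp3 had the lowest adjusted p (0.581), at -0.38 (SE 0.20). Without female non-trained libraries 1 and 2, all 10 were below 0 (median -0.45), and 5 members had an unadjusted p under 0.05, with the lowest adjusted p of 0.289 for Fmod (-0.60, SE 0.20). Over all genes 1748 of 16311 were under that unadjusted p with edgeR in that setting. With limma-voom on all 20 libraries 7 of 10 stood above 0. The training by sex interaction, the male effect minus the female effect, had a median of -0.28 with 9 of 10 members below 0 and none called, against 0% of all genes. Its median was -1.05 with limma-voom, and 0.16 with 2 below 0 without the 2 libraries. For no member were the 5 trained and 5 non-trained libraries of either sex free of overlap. The share of all genes free of overlap is not given here, so this count has no background beside it.

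**Figure D4:**
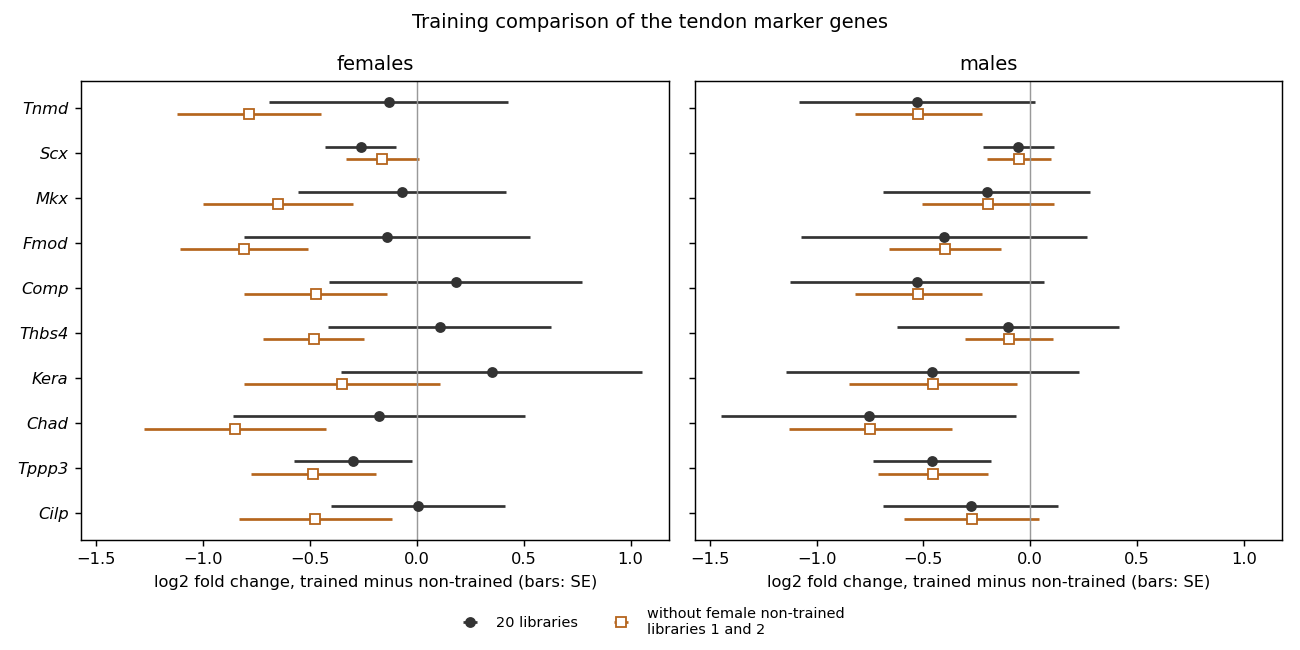
Log2 fold change, trained minus non-trained, of the 10 genes in females (left) and males (right), with bars of 1 SE. Filled circles use all 20 libraries and open squares leave out female non-trained libraries 1 and 2, with a female median of -0.10 for the circles and -0.48 for the squares and a male median of -0.43 for both.

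No member was called between male and female muscle. In non-trained mice, 0 of 10 members were called with edgeR, DESeq2 or limma-voom, against 5.21% of all genes with edgeR, and 1 member, Scx, had an unadjusted p under 0.05. Over all genes 3411 of 15709 were under that unadjusted p with edgeR. Scx had 6.09, 8.06, 7.45, 10.5 and 7.0 TPM in non-trained males, against 12.2, 7.61, 8.56, 9.21 and 10.7 TPM in non-trained females. The log2 difference was -0.37, with SE 0.17 and an adjusted p of 0.194, and without female non-trained libraries 1 and 2 it was -0.28, with an unadjusted p of 0.1175 and an adjusted p of 0.4765. Library 1 of that group held the highest Scx value of all 20. Kera had the largest estimate, 0.94 (SE 0.70), and it stood at 0.23 (SE 0.46) without female non-trained libraries 1 and 2. Over the members the median was 0.05, and -0.45 with 9 of 10 below 0 without those 2 libraries. With limma-voom on all 20 libraries, 8 of 10 members stood above 0 (median 1.02).

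In trained mice, where neither group holds those libraries, 9 of 10 members had a log2 difference below 0 (8 of 10 without TMM scaling, where Thbs4 was above 0 at 0.07), with a median of -0.22 (over all genes 0.00), none was called against 5.6% of all genes, and 0 had an unadjusted p under 0.05. Over all genes 3257 of 15709 were under that unadjusted p with edgeR. Chad stood at -0.72 (SE 0.69) and Comp at -0.66 (SE 0.59), and Kera was the 1 member above 0 (0.13, SE 0.69). Comp had 4.62, 9.09, 4.50, 4.42 and 8.04 TPM in trained males, against 7.49, 5.54, 13.4, 17.7 and 8.83 TPM in trained females. The ranges overlapped, with 3 male libraries below every female one.

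Averaged over both training states, 7 of 10 members were below 0 (median -0.12) and none was called, against 17.9% of all genes. Scx was nearest to the threshold, at -0.27 (SE 0.12, adjusted p = 0.123), with an adjusted p of 0.0615 to 0.2848 over the alternatives and -0.22 (adjusted p = 0.2094) without female non-trained libraries 1 and 2. Without those 2 libraries, 9 of 10 members were below 0 (median -0.38). In that setting 4 members had an unadjusted p under 0.05 with edgeR, against 4454 of 16311 genes. Comp then stood at -0.64 (SE 0.22, adjusted p = 0.0732) and Chad at -0.77 (SE 0.28, adjusted p = 0.0883). With limma-voom on all 20 libraries, 8 of 10 members stood above 0 (median 0.32).

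Gene lists related to tendon differed in how closely they followed the members across libraries. A score was formed as the mean of the 10 standardised members after group means were subtracted, and each gene's Pearson's r with it was taken over the 20 libraries. The median r was 0.85 for 9 other small leucine-rich proteoglycans, 0.86 for 13 collagens of tendon fibrils, 0.83 for the thrombospondins Thbs1 to Thbs3 with Cilp2, 0.82 for 18 other tendon-associated genes and 0.68 for 16 genes of collagen processing and crosslinking, against 0.015 over 11621 eligible genes. Over 18 libraries without female non-trained libraries 1 and 2 these medians were 0.47, 0.65, 0.31, 0.40 and 0.38, against -0.01. Among collagens, Col12a1 (0.963, and 0.761 over 18 libraries) and Col1a1 (0.914, and 0.712) stood high and Col11a2 (0.069, and 0.408) stood apart. The list of TGF-beta signalling and tenogenic regulators followed less closely, with a median r of 0.35 over 20 libraries and 0.06 over 18. So did the myotendinous and focal adhesion genes, with 0.45 and 0.22. The fibroblast markers had a median r of 0.80, and 0.47 over 18 libraries, the fast fibre genes -0.58 and -0.10. The macrophage markers had 0.38 over 20 libraries and -0.22 over 18. In the same order, perineurium and epineurium markers had 0.66 and 0.10, endothelial markers 0.59 and -0.12, and Schwann cell markers 0.52 and 0.16. Satellite cell markers had 0.36 and 0.16, smooth muscle and pericyte markers 0.33 and 0.01, and slow fibre markers -0.24 and -0.14. Some cell type lists thus followed the score over 20 libraries more closely than the TGF-beta and myotendinous lists did. The 6 cartilage and bone markers that passed the filter had a median r of 0.04, and 0.26 over 18 libraries.

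**Figure D5:**
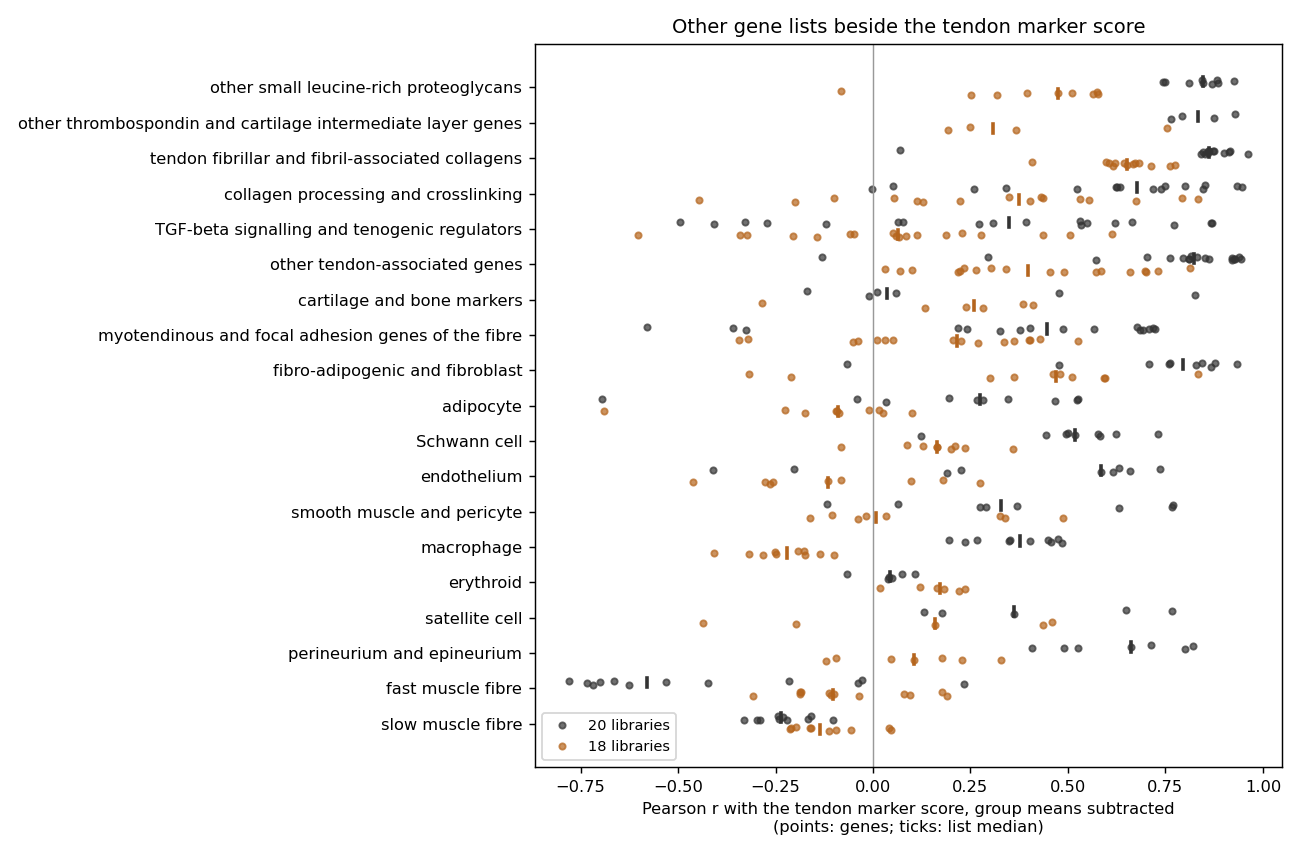
Pearson's r of each gene with the tendon marker score after subtraction of group means, by gene list, over 20 libraries (black) and over 18 without female non-trained libraries 1 and 2 (orange), with ticks at list medians. The collagen list keeps a median of 0.65 over 18 libraries. Among cell type lists over 18 libraries, the fibroblast markers have a median of 0.47, while macrophage (-0.22) and fast muscle fibre (-0.10) markers lie below 0.

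By the fixed rule for likeness, the 8 genes closest to the score over 20 libraries were Antxr1 (r = 0.982), Col12a1 (0.963), Serpinf1 (0.955), Itgbl1 (0.951), Col8a2 (0.950), Bmp1 (0.947), Zfp185 (0.946) and Abi3bp (0.945). Antxr1 encodes a collagen-binding membrane receptor, Col12a1 a collagen of tendon fibril surfaces, and Bmp1 the protease that trims procollagen. Antxr1 had 0.75 TPM in female non-trained library 1 and 2.20 TPM in library 2, against 2.5 to 6.41 TPM in the other 18. It also ranked first over 18 libraries (r = 0.923), and 2 of the 8 genes, Antxr1 and Serpinf1, were among the top 8 of both sets. As many as 307 eligible genes had r above 0.8 over 20 libraries.

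No gene of these lists was called with edgeR in trained against non-trained mice of either sex or in the mean, while several differed between the sexes. Among 9 other small leucine-rich proteoglycans, 2 were called higher in males in the mean of both training states, 0 were called lower and 7 did not pass. All 9 stood above 0 in that mean (median 0.45). Over all genes 17.9% were called in that comparison, so 2 of 9 is near the background. Both genes were also called without female non-trained libraries 1 and 2. Podn (podocan) averaged 7.37 ± 2.07 TPM in trained males and 4.13 ± 1.15 TPM in trained females, and 7.67 ± 1.49 TPM in non-trained males and 3.84 ± 1.27 TPM in non-trained females (SD, n = 5 each). The log2 difference was 0.92, with SE 0.23 and an adjusted p of 0.00901 by edgeR, and 0.71 (adjusted p = 0.00588) without those 2 libraries. Dcn, encoding decorin, a major proteoglycan of muscle matrix, averaged 347 ± 78.6 TPM in trained males and 232 ± 33.4 TPM in trained females, and 376 ± 17.1 TPM in non-trained males and 215 ± 101 TPM in non-trained females (SD, n = 5 each). The log2 difference was 0.63, with SE 0.18 and an adjusted p of 0.0205 by edgeR, which ran from 0.00199 to 0.0581 over the alternatives. It was 0.45 (adjusted p = 0.0041) without those 2 libraries. Cell type markers also differed between the sexes. In the mean of both training states the macrophage markers were higher in males (10 of 10, median 1.52), with 113.3 to 758.9 summed TPM in trained males and 141.4 to 367.9 in non-trained males, against 67.3 to 143.6 in trained females and 41.3 to 135.3 in non-trained females. The slow fibre markers were lower in males (10 of 10, median -1.93), with 890.4 to 2143 summed TPM in trained males and 389.2 to 1917 in non-trained males, against 553.7 to 6720 in trained females and 1325 to 5281 in non-trained females. Of the 10 fibroblast markers, 3 were higher in males, against 17.9% of all genes called. Leaving out female non-trained libraries 1 and 2 gave 2081 calls among 16311 genes. The marker counts were then 10 of 10 for macrophage, 8 of 10 for slow muscle fibre and 3 of 10 for fibroblast markers. Their part in the matrix gene results was not tested. Among the 10 members, the proteoglycan genes Fmod and Kera had -0.09 (SE 0.47) and 0.53 (SE 0.49) between the sexes in the mean of both training states. Chad, which encodes a leucine-rich repeat protein, had -0.431 (SE 0.485).

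Among 13 collagens of tendon fibrils, Col5a2 was the 1 called in males against females in the mean of both training states, at 0.74 (SE 0.25, adjusted p = 0.0462), where 17.9% of all genes were called, and the call was lost without female non-trained libraries 1 and 2 (adjusted p = 0.0769). On 20 libraries, 12 of the 13 stood above 0 in that mean (median 0.49), against a median of -0.12 for the 10 members. With trained and non-trained males compared, 12 of the 13 stood below 0 (median -0.30), of which none was called, and Col1a1 stood at -0.70 (SE 0.53). Collagens that vary together do not give 13 separate estimates of a direction. Of 16 collagen processing genes, Lox (0.64, SE 0.18) and Adamts2 (0.53, SE 0.16) were higher and P4ha1 (-0.41, SE 0.085) and P4ha2 (-0.24, SE 0.08) were lower in males in the mean, and 12 did not pass, against 17.9% of all genes called. Lox encodes the enzyme that crosslinks collagen and P4ha1 a subunit of collagen prolyl hydroxylase. Without the 2 libraries the calls were Lox, P4ha1 and Plod2 (-0.69, lower), where 2081 of 16311 genes were called.

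TGF-beta is the growth factor family known to induce Scx, and the list tested holds its signalling genes and regulators of tendon formation such as Egr1. Of its 18 genes that passed the filter, 6 were called between the sexes in the mean of both training states, 4 higher and 2 lower in males, against 17.9% of all genes. Tgfb3, a ligand, averaged 16.1 ± 0.828 TPM in trained males and 20.8 ± 1.63 TPM in trained females, and 15.8 ± 1.08 TPM in non-trained males and 21.0 ± 2.25 TPM in non-trained females (SD, n = 5 each). The log2 difference was -0.45, with SE 0.04 and an adjusted p of 4.37e-07, and -0.48 (adjusted p = 1.49e-06) without female non-trained libraries 1 and 2. The male and female libraries did not overlap for Tgfb3 in either training state, and the share of all genes free of overlap is not given here. Without female non-trained libraries 1 and 2, the call of Tgfb1, another ligand (0.62, SE 0.17), was lost. The receptors Tgfbr2 (0.48, SE 0.08, adjusted p = 0.000495) and Tgfbr3 (0.49, SE 0.09, adjusted p = 0.00106) were higher in males, and were called without those 2 libraries as well (0.38 and 0.39). In non-trained mice alone Tgfbr2 (0.45, SE 0.12) and Tgfbr3 (0.53, SE 0.13) were called on 20 libraries and lost without female non-trained library 1 (adjusted p = 0.0527 for both).

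Of 18 other tendon-associated genes, Htra1, a secreted protease, was the 1 called in the mean of both training states, against 17.9% of all genes. It averaged 35.5 ± 9.94 TPM in trained males and 20.6 ± 3.59 TPM in trained females, and 39.5 ± 8.06 TPM in non-trained males and 20.9 ± 2.79 TPM in non-trained females (SD, n = 5 each). The log2 difference was 0.83, with SE 0.11 and an adjusted p of 3.22e-05, and 0.85 (adjusted p = 0.000196) without female non-trained libraries 1 and 2. Its r with the tendon score was -0.13. Without female non-trained libraries 1 and 2, the mean comparison also called Fbln1 (-0.39), Ccn2 (-0.72), Fibin (-0.47) and Cpxm2 (-0.26), all lower in males. Of 16 myotendinous and focal adhesion genes, Vcl (0.53, SE 0.08), the focal adhesion protein vinculin, and Tln1 (0.17, SE 0.05) were higher in males. Xirp2 (-0.31, SE 0.09) was lower and 13 did not pass, so 3 of 16 were called against 17.9% of all genes. Which cells these transcripts came from was not tested. Without the 2 libraries Vcl (0.43) and Xirp2 (-0.35) were called and Tln1 was not (adjusted p = 0.13), while Itga7 (0.22, higher) and Col22a1 (-0.58, lower), a collagen of the myotendinous junction, were. Among the thrombospondins, Thbs1 (-0.63, SE 0.16, adjusted p = 0.0155) was called lower in males in that setting and none on 20 libraries.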

How the data were processed

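RNA of wild-type mouse muscle was sequenced from poly(A)-selected, strand-directional libraries, per the labels' protocols. Each library has its own deposited table of RSEM expected counts and TPM per gene, per the file headers. The submitters' processing notes list limma, edgeR, RSEM 1.3.1, STAR 2.5.1, cutadapt, Trim Galore and the build GRCm38, with no roles. Annotation release and strand setting are not given in the sources used here. Symbols and coordinates came from GENCODE M21 (53360 of 53465 identifiers matched, the others holding 0.00673% of counts). RSEM shares out reads that match more than 1 gene by estimation.

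Deposited TPM served for levels. Expected counts were rounded, filtered with filterByExpr (minimum count 10), scaled by TMM and fitted with 1 coefficient per group in edgeR 4.0.16 under R 4.3.3 (robust quasi-likelihood, 16 residual degrees of freedom). Adjusted p is Benjamini-Hochberg over 15709 genes, with a threshold of 0.05. SE was taken as the size of the log2 fold change over the root of its F value, and log2 CPM used a prior count of 2. Pairs of members were correlated over libraries, with 100000 permutations. The labels do not say whether libraries came from separate animals, and p-values therefore reflect the variation among these libraries, which may be technical. A value resting on under 20 counts carries a wide counting error.

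The members and the gene lists were chosen with earlier results of these data known. All 10 members are named. Each list gave up to 3 genes by the smallest unadjusted p in the comparison described. The genes most like the members were the 8 protein-coding non-members with a mean of at least 1 CPM, a name that is not a predicted-gene or clone name and the highest Pearson's r with the members' score. P4ha2, Plod2, Tgfb1, Fbln1, Ccn2, Fibin, Cpxm2, Itga7, Col22a1, Thbs1, Plin4 and the collagens named for their r were named after their values were seen. On simulated counts for training in females (15461 genes), the edgeR procedure recovered 39 of 99 genes changed 1.5-fold (39.4%) and 61 of 98 changed 2-fold (62.2%), with 3 false calls. The changed genes were drawn from all genes tested, and no outlying library was simulated. These shares do not carry over to the members, whose median SD of log2 CPM within groups was 1.09, against 0.257 over all genes. Alternatives were DESeq2 1.42.0, limma-voom (limma 3.58.1), RLE factors, no TMM, unfiltered genes, genes with at least 1 CPM in 5 libraries and a mean of 20 counts, the compared groups alone, removal of mitochondrial and the top 20 genes, and each library left out. Leaving out female non-trained libraries 1 and 2 together was added after the data were seen.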

Additional observations from a re-analysis of the deposited data

Results flagged for a closer look

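Male trained library 2 stood apart from its group in the summed TPM of the 10 tendon genes. It had 202.4 TPM, against 144.2 to 158.6 TPM in the other 4 trained males. The gap to the nearest library was 0.753 of the group's range, above the 0.71 that Dixon's test allows for 5 samples. Of the 48 groups of values screened, this was the 1 that passed, and chance alone passes about 5% of them. Fmod (58.61 TPM), Thbs4 (52.61 TPM), Cilp (23.87 TPM) and Comp (9.09 TPM) were each highest of the 5 in that library, while Tppp3 (33.59 TPM) was in the middle.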

How the results depend on the processing

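No member was called in any of the 7 comparisons under any alternative run, and the lowest adjusted p of any member was 0.0615, for Scx between the sexes averaged over training states (-0.33) without male trained library 3. Of 1999 member values under alternatives, 125 changed sign, of which 31 were in females, 3 in males and 26 in the mean of the training comparisons. The median r of the 28 pairs was 0.681 without female non-trained libraries 1 and 2.

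Over all genes, DESeq2 called 33 in trained against non-trained females, 5 in males and 30 in the mean, against 0, 0 and 2 with edgeR, whose mean ran from 0 to 7 with 1 library left out. Between the sexes in non-trained mice 818 genes were called, against 1465 with DESeq2, 448 with the compared groups alone, 302 without female non-trained libraries 1 and 2, and 435 to 1038 with 1 library left out (435 without library 3, 499 without library 2 of the non-trained males and 507 without library 2 of the non-trained females). In trained mice 880 were called, against 1401 with DESeq2, 558 unfiltered, and 494 (without male trained library 3) to 1239 with 1 library left out. Without TMM scaling 541 of 721 called genes were higher in non-trained males, against 493 of 818 with it, 832 of 1045 in trained males, against 532 of 880, and 2061 of 2743 in the mean, against 1556 of 2817. The causes were not tested. No paired analysis was possible because the labels give no replicate number shared between groups. Low counts limit the precision of single values, since Mkx and Chad had 4 counts each in female non-trained library 1, the deepest of the 20, and Kera had 0.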

Other observations

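Plin4, which encodes a lipid droplet coat protein and stands on the adipocyte list, ran against the tendon score within groups, with a Pearson's r of -0.695 over 20 libraries and -0.689 over 18 without female non-trained libraries 1 and 2. The adipocyte list as a whole had a median r of 0.28 over 20 libraries and -0.09 over 18. Plin4 was picked out after its value was seen, and the libraries share their dissection and count scaling.

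Among genes outside the lists, Sirt6 (0.875), Rreb1 (0.812) and Trim2 (0.803) were among the 8 closest to the tendon score over 18 libraries, and had r = 0.789, 0.661 and 0.828 over 20. The other 5 were Antxr1, Loxl2, Col15a1, Serpinf1 and Fbn1.

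Trained females formed 2 levels in the summed TPM of Schwann cell markers, with 219.2, 229.9 and 235.3 TPM in libraries 3, 4 and 5 and 82.01 and 57.51 TPM in libraries 1 and 2. The tendon content of the same libraries was 199, 238.9 and 167.5 TPM in libraries 3 to 5 and 170.2 and 132.3 TPM in libraries 1 and 2.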
